A study of Arabidopsis with 8 samples.

Results

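The cytochrome P450 genes of Arabidopsis thaliana were followed through roots and shoots of wild-type seedlings and of seedlings that overexpress SAUR41, a small auxin up RNA gene. Members were the genes whose name in any of the 8 files is CYP followed by a family number, a subfamily letter and a gene number, less 13 gene identifiers that the rule sets aside (P450s of the iron, suberin, flavonoid, aliphatic glucosinolate and brassinosteroid pathways). The name pattern matched 215 genes, 12 of them were set aside, and 203 of the 25404 genes listed in the files remained. They fall into 39 families, 55 subfamilies and 9 clans. Total RNA came from 5-day-old seedlings, with 2 libraries for each genotype in roots and 2 for each genotype in the shoot part, which makes 4 groups and 8 libraries. Col-0 is the wild-type accession, and OE-SAUR41 is the overexpressing genotype by its sample name. The labels do not give the promoter, the number of transgenic lines or the number of pooled seedlings, nor whether the libraries of 1 group are separate cultures, so the p-values below measure the spread between these libraries, which may be technical.

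P450s are heme enzymes that use electrons from a reductase to insert oxygen into small molecules. Plants use them to build lignin precursors, sterols, triterpenes, glucosinolates and camalexin, to make cutin and wax, and to activate or inactivate most hormones. A clan is a deep branch of the P450 tree. The plant clan 71 has expanded most and holds most enzymes of specialised metabolism, while clans 51, 74, 97 and 710 hold 1 family each here.

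Levels are in FPKM as the authors deposited them, a unit that divides fragments by transcript length and by library size, so levels of different genes can be set side by side per length. Genes unlisted in a file were set to 0. The number of fragments behind a value is unknown, and no counting interval can be given. SAUR41 itself stood at 4.64 and 7.46 FPKM in Col-0 roots and 7996 and 4670 in OE-SAUR41 roots, and at 4.93 and 8.29 in Col-0 shoots and 10675 and 10248 in OE-SAUR41 shoots. The tissue labels held: 5 of 5 photosynthesis genes summed to 69.1 to 102 FPKM in roots and 19861 to 36256 in shoots, and 5 of 5 root genes summed to 178 to 197 in roots and 5.71 to 8.84 in shoots. The 2 Col-0 shoot libraries stood apart from each other. Their log2(FPKM + 1) values correlated across genes at r = 0.930, against 0.981 to 0.986 in the other pairs, and 27 of 142 tested P450s (19.0%) differed 2-fold or more between them, against 1 to 3 in the other pairs; the share over all genes was 29.1%, against 1.27% to 2.04%.

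In total, 106 of the 203 members were listed in all 8 libraries, 29 in no shoot library and 9 in no root library. For tests, a gene needed 1 FPKM or more in at least 2 libraries; 142 members passed and 61 did not, the highest single value among the latter being 1.58 FPKM. By their second-highest library, the members just inside that limit were CYP71A28 at 1.03 FPKM, CYP707A2 at 1.04 and CYP71B18 at 1.09, and those just outside were CYP710A4 at 0.898, CYP71B24 at 0.884 and CYP71A13 at 0.874. Summed over all members, P450 transcripts came to 3602 to 3827 FPKM in the 4 root libraries and 1429 to 2004 in the 4 shoot libraries. That was 0.569% to 0.602% of all FPKM in roots and 0.184% to 0.296% in shoots. Mean levels of 10 FPKM or more were reached by 64 members in roots and 36 in shoots, and levels of 100 FPKM or more by 7 and 3. In bulk samples a larger number of expressing cells and more RNA per cell cannot be told apart.

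A single gene led the root set. CYP81F4 (AT4G37410, chromosome 4, 17590768 to 17592920), which oxidises indole glucosinolates towards their methoxylated form, stood at 1063 and 1005 FPKM in Col-0 roots and 801 and 968 in OE-SAUR41 roots, against 17.0 and 14.5 in Col-0 shoots and 34.2 and 35.8 in OE-SAUR41 shoots. It alone made up 22.2% to 27.8% of the summed P450 level of a root library. CYP73A5, cinnamate hydroxylase at the entry to lignin and flavonoid synthesis, was next at 354 and 350.4 FPKM in Col-0 roots and 331 and 379 in OE-SAUR41 roots, against 77.5 and 53.1 in Col-0 shoots and 58.9 and 63.0 in OE-SAUR41 shoots. Roots exceeded shoots without overlap for both genes. The root order went on with CYP83B1, which commits indole aldoximes to glucosinolates (161 to 188 FPKM), the thalianol oxidase CYP705A5 (138 to 184), CYP79B2, which makes indole-3-acetaldoxime from tryptophan (103 to 118), and the sterol demethylase CYP51G1 (96.2 to 119.7). The ranges of CYP83B1 and CYP705A5 overlapped, as did those of CYP79B2 and CYP51G1, while the first pair lay above the second in every root library.

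No gene led shoots in the same way. CYP83B1 (114 to 189.8 FPKM), CYP86A2, a fatty acid hydroxylase of the cuticle (107 to 195), and CYP706A1 (106 to 179.8) shared the top with overlapping ranges, above all other members in every shoot library. CYP76C1, which oxidises the monoterpene linalool (74.6 to 85.2), CYP84A1, the ferulate hydroxylase of syringyl lignin and sinapate esters (68.5 to 81.6), and CYP51G1 (56.5 to 73.2) followed, with only CYP76C1 above CYP51G1 in every library. The highest single member held 8.87% to 11.2% of the summed P450 level of a shoot library. CYP86A2 lies in a locus that the files give together with AT4G00370 (13.3 to 16.5 FPKM in roots, 25.9 to 57.0 in shoots), and CYP81F4 in one with AT4G37409 (0.0327 to 0.135 in roots, unlisted in shoots). With strand handling not given in the sources used here, reads of overlapping genes cannot be told apart; 18 members share such a locus.

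**Figure D1:**
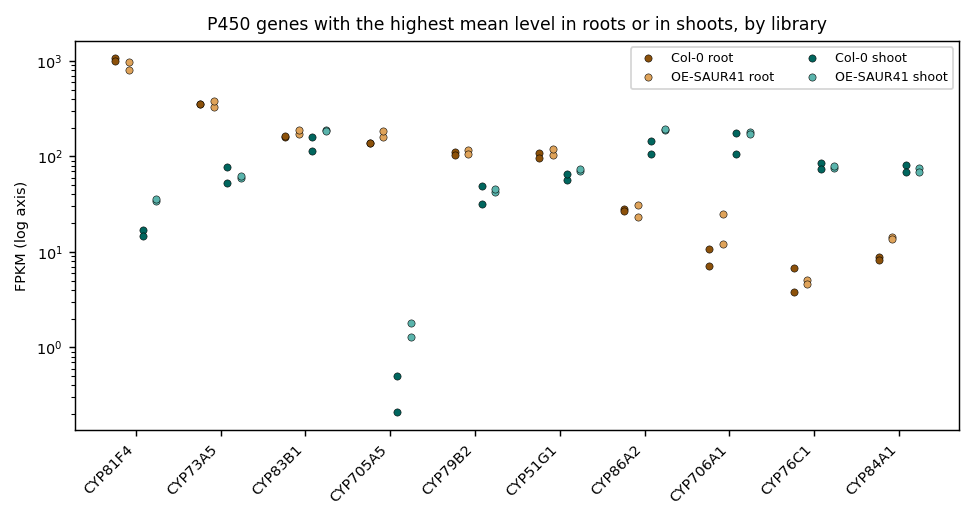
FPKM (log axis) of the 10 P450 genes that hold the 6 highest mean levels in roots or in shoots, 1 point per library and 2 per group. CYP81F4 lies at 801 to 1063 FPKM in roots and 14.5 to 35.8 in shoots, CYP83B1 lies close together in both tissues, and CYP86A2, CYP706A1, CYP76C1 and CYP84A1 lie higher in shoots.

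Most P450s differed between the organs, and they split both ways. In Col-0, 86 of 142 tested members were higher in roots (60.6%) and 32 higher in shoots (22.5%), by limma on log2(FPKM + 1) at an adjusted p under 0.05. Over all 19863 genes tested the same shares were 52.7% and 13.2%. In OE-SAUR41, which shares no library with the Col-0 comparison, 87 members were higher in roots (61.3%) and 30 in shoots (21.1%), beside 66% and 11.8% of all genes. Of the 142 tested members, 84 were higher in roots in both genotypes, 28 higher in shoots in both, none went opposite ways, and 19 were called in neither. The share of members called for shoots was above the background in both genotypes, while the root share was above it in Col-0 and below it in OE-SAUR41. Without Col-0 shoot replicate 1, the root share in Col-0 lay below that of all genes too. Fitted on the compared libraries alone, 75 members were called for roots and 30 for shoots in Col-0, beside 6306 and 2098 of all 19863 genes. In OE-SAUR41 such fits gave 89 and 35 members, beside 14319 and 2792 of all genes.

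The scale of the files bears on this balance. The median gene lay 0.91 higher in roots on the log2 scale in Col-0 and 1.22 higher in OE-SAUR41, and the median P450 1.25 and 1.31 higher. Relative to all genes, the members' median was thus 0.34 and 0.099. The Col-0 medians depended on the Col-0 shoot libraries. Without replicate 1 they were 1.20 for all genes and 1.57 for members, and without replicate 2 they were 0.60 and 0.94. With median-of-ratios scaling, which sets the libraries to a common level of the typical gene, 67 members were called for roots and 45 for shoots in Col-0 (background 21.9% and 20.7%), and 68 and 48 in OE-SAUR41 (background 29.5% and 24.7%). Quantile normalization gave 71 and 46, and 66 and 50 (background 28.4% and 21.8%, and 32.5% and 22.9%). Under all 3 scales and in both genotypes, 58 members were higher in roots and 28 higher in shoots. These members are called stable below. The share of all genes that meets this rule is not given here, so stable counts describe the members and do not set them against other genes. Leaving out each library in turn, all 58 and 26 of the 28 kept their call.

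On the deposited values, with no model, the 4 root libraries all lay above the 4 shoot libraries for 86 tested members (60.6%, beside 62.1% of all genes), and all below for 36 (25.4%, beside 13.4%). Counting untested members as well, these numbers were 103 and 44 of 203.

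By clan, clan 71 gave 56 members higher in roots and 21 higher in shoots of 92 tested in Col-0 (60.9% and 22.8%), and 57 and 20 in OE-SAUR41 (62.0% and 21.7%). Of all genes, 52.7% and 66% were higher in roots and 13.2% and 11.8% in shoots, in Col-0 and OE-SAUR41. With all 8 libraries, the root share of clan 71 thus lay above that of all genes in Col-0 and below it in OE-SAUR41. Its median lay 0.37 and 0.099 above that of all genes, and 38 of its members were stable as root-higher and 19 as shoot-higher. Clans 72 and 85 leaned to roots. In clan 72, 11 of 14 tested members were higher in roots and 1 higher in shoots in each genotype, with a median change of 0.83 above all genes in Col-0 and 0.58 in OE-SAUR41. In clan 85, 10 of 13 were higher in roots and 2 in shoots in each, with medians of 1.29 and 1.27 above all genes. Stable root calls numbered 8 in clan 72 and 9 in clan 85. Clan 86, the fatty acid hydroxylases, was divided, 6 of 15 tested members being higher in roots and 4 in shoots in each genotype on the deposited scale. With median-of-ratios scaling this balance turned, to 4 and 8 in Col-0 and 4 and 9 in OE-SAUR41, and with quantile normalization to 2 and 8 and 2 and 9. Stable calls numbered 1 for roots and 3 for shoots, and its median lay 1.33 and 1.42 below that of all genes. Its summed level was 101 to 114 FPKM in roots and 191 to 263 in shoots, without overlap. The 3 carotenoid hydroxylases of clan 97 lay 2.65 and 2.21 below all genes at the median. Of the small clans, CYP711A1 was higher in roots, CYP74B2 of the hydroperoxide lyase family was higher in shoots at 1.69 to 3.03 FPKM against 0 to 0.0892 in roots, and clan 710 split between its 2 tested members.

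**Figure D2:**
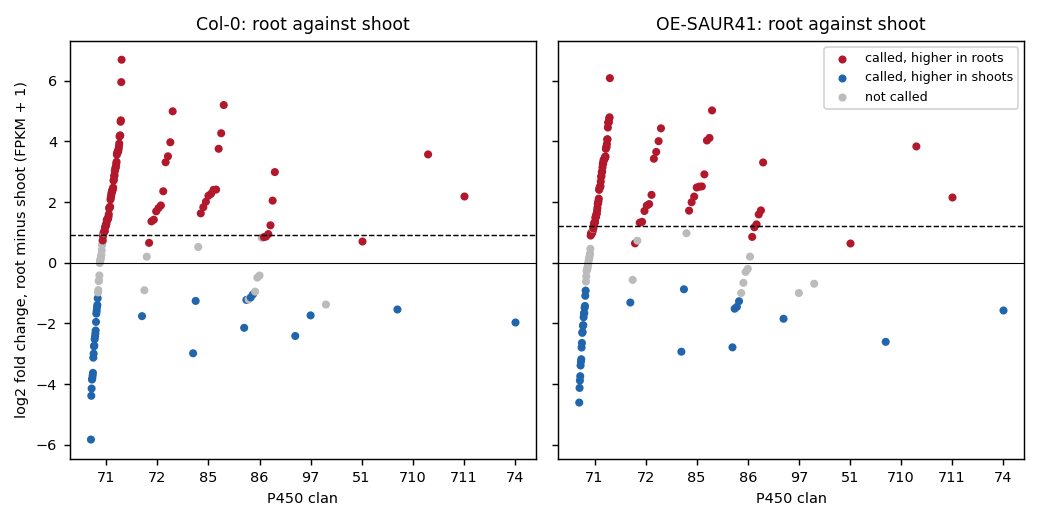
Log2 fold change of root against shoot, on log2(FPKM + 1), of the 142 tested P450 genes by clan, in Col-0 (left) and OE-SAUR41 (right), each point 1 gene sorted by value within its clan. Red points passed the limma test as higher in roots, blue as higher in shoots and grey did not pass; the dashed line is the median of all genes, 0.91 and 1.22.

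The largest change towards roots belonged to a triterpene oxidase and the largest towards shoots to a CYP706A gene. Among members whose higher organ averaged 5 FPKM or more, CYP705A5 had the largest root change, at 6.69 ± 0.22 (SE) in Col-0 and 6.08 ± 0.22 in OE-SAUR41 (limma, adjusted p = 1.01e-06 and 1.39e-06). CYP81F4 came next in Col-0, at 5.95 ± 0.16 (SE) in Col-0 and 4.62 ± 0.16 in OE-SAUR41 (limma, adjusted p = 8.33e-07 and 1.34e-06). The other genes named here were among the 8 largest changes in at least 1 genotype. CYP72A14 of clan 72 stood at 40.9 to 45.2 FPKM in roots and 0.314 to 1.30 in shoots. CYP71A27, linked to camalexin formation in roots, stood at 52.7 to 65.0 and 0.803 to 2.49. CYP705A8, CYP705A25 and CYP705A30 lay at 23.4 to 27.9, 22.2 to 25.9 and 17.3 to 24.9 FPKM in roots, and none exceeded 0.387 FPKM in a shoot library. CYP87A2 of clan 85 was at 12.6 to 21.1 FPKM in roots and was listed in 1 shoot library only, at 0.0250. CYP705A25 shares its locus with AT1G50570, which stood at 32.8 to 39.2 FPKM in roots and 6.91 to 21.7 in shoots.

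At the shoot end, CYP706A6 stood at 0.175 and 0.123 FPKM in Col-0 roots and 0.272 and 0.179 in OE-SAUR41 roots, against 67.9 and 60.5 in Col-0 shoots and 28.6 and 29.1 in OE-SAUR41 shoots. Its log2 fold change of root against shoot was −5.82 ± 0.24 (SE) in Col-0 and −4.61 ± 0.24 in OE-SAUR41 (limma, adjusted p = 1.98e-06 and 5.95e-06). CYP71B20 stood at 0.106 to 0.161 FPKM in roots and 17.7 to 28.2 in shoots, and CYP71B5 at 0.0842 to 0.217 and 15.3 to 16.6, the shoot libraries of CYP71B5 being the closest together. CYP76C1 stood at 3.84 to 6.77 FPKM in roots, and CYP708A3 of clan 85 at 0.691 to 1.28 in roots and 9.28 to 23.6 in shoots. In each of these the 4 shoot libraries lay above the 4 root libraries. CYP78A5, known as KLUH, which keeps organ primordia growing, stood at 0.327 to 0.897 FPKM in roots and 16.2 to 20.0 in shoots.

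The indole and camalexin list holds 12 members, 10 of them tested, and 9 of these were higher in roots in each genotype, with none higher in shoots. Its median change lay 1.32 above all genes in Col-0 and 0.75 in OE-SAUR41, and 5 members were stable across scales. Over all genes, 52.7% were higher in roots in Col-0 and 66% in OE-SAUR41. The summed level was 1301 to 1559 FPKM in roots and 199 to 319 in shoots. The 2 tryptophan-converting enzymes CYP79B2 and CYP79B3 stood at 103 to 118 and 79.3 to 91.5 FPKM in roots and 32.1 to 49.1 and 26.0 to 46.0 in shoots, and both lost their root call with median-of-ratios scaling. The next enzyme, CYP83B1, was the tested member of the list that was not called, at 161 and 164 FPKM in Col-0 roots and 173 and 188 in OE-SAUR41 roots, against 159 and 114 in Col-0 shoots and 189.8 and 185 in OE-SAUR41 shoots; with median-of-ratios scaling it was higher in shoots in OE-SAUR41.

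Later enzymes of the pathway were lower in shoots. CYP81F3, which oxidises the indole ring of indole glucosinolates, stood at 13.3 to 19.4 FPKM in roots and 0.115 to 0.408 in shoots. CYP71B15, known as PAD3, which completes camalexin, stood at 20.3 and 22.02 FPKM in Col-0 roots and 19.3 and 19.1 in OE-SAUR41 roots, against 0.921 and 0.269 in Col-0 shoots and 0.538 and 1.10 in OE-SAUR41 shoots. Its log2 fold change was 3.83 ± 0.31 (SE) in Col-0 and 3.49 ± 0.31 in OE-SAUR41 (limma, adjusted p = 4.27e-05 and 7e-05). CYP71A12, which converts indole-3-acetaldoxime to the nitrile, stood at 15.9 to 20.6 FPKM in roots and 1.57 to 4.10 in shoots, while its close relative CYP71A13 reached 0.0796 FPKM in roots and 0.261 to 0.954 in shoots and was not tested. The sources used here do not say how reads common to these closely related neighbours were assigned. CYP71B6, which acts on indole-3-acetonitrile, stood at 54.0 to 65.2 and 7.77 to 15.6, and it shares a locus with SDR2B (3.45 to 6.70 FPKM in roots). CYP82C2, a hydroxylase of indole carbonyl nitriles, did not pass the level filter.

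The 7 P450s of the triterpene gene clusters were higher in roots in both genotypes, all 7 of them under each of the 3 scales. Such clusters hold an oxidosqualene cyclase and its tailoring enzymes side by side. The members summed to 253 to 320 FPKM in roots and 1.65 to 4.25 in shoots, and their median change lay 2.24 and 2.28 above that of all genes. On the deposited scale, 52.7% of all genes were higher in roots in Col-0 and 66% in OE-SAUR41. In the thalianol cluster, CYP708A2, thalianol hydroxylase (chromosome 5, 19444137 to 19447850), stood at 77.0 and 75.9 FPKM in Col-0 roots and 89.9 and 85.4 in OE-SAUR41 roots, against 0.971 and 1.26 in Col-0 shoots and 1.56 and 1.91 in OE-SAUR41 shoots. CYP705A5 (chromosome 5, 19434826 to 19436689) stood at 138 and 138 FPKM in Col-0 roots and 159 and 184 in OE-SAUR41 roots, against 0.506 and 0.208 in Col-0 shoots and 1.29 and 1.80 in OE-SAUR41 shoots. All 4 root libraries lay above all 4 shoot libraries for both genes.

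In the marneral cluster, CYP71A16, which hydroxylates marnerol, stood at 17.6 and 17.8 FPKM in Col-0 roots and 29.2 and 20.6 in OE-SAUR41 roots, against 0 and 0.0381 in Col-0 shoots and 0.0243 and 0.0206 in OE-SAUR41 shoots. Its neighbour CYP705A12 stood at 6.32 to 9.89 FPKM in roots and was listed in 1 shoot library, at 0.0308. CYP705A1, which cleaves arabidiol to a volatile homoterpene, stood at 9.47 to 13.9 FPKM in roots and 0 to 0.522 in shoots. CYP716A1 and CYP716A2, beside the tirucalladienol synthase gene PEN3, stood at 2.47 to 3.58 and 1.90 to 4.69 FPKM in roots and were listed in no shoot library. The cyclases and the acyltransferase of the clusters showed the same pattern, 4 of 4 tested being higher in roots in each genotype. Thalianol synthase THAS1 stood at 82.9 to 108 FPKM in roots and 0.072 to 0.722 in shoots, and PEN3 at 0.0695 to 0.586 in roots, below the filter.

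**Figure D3:**
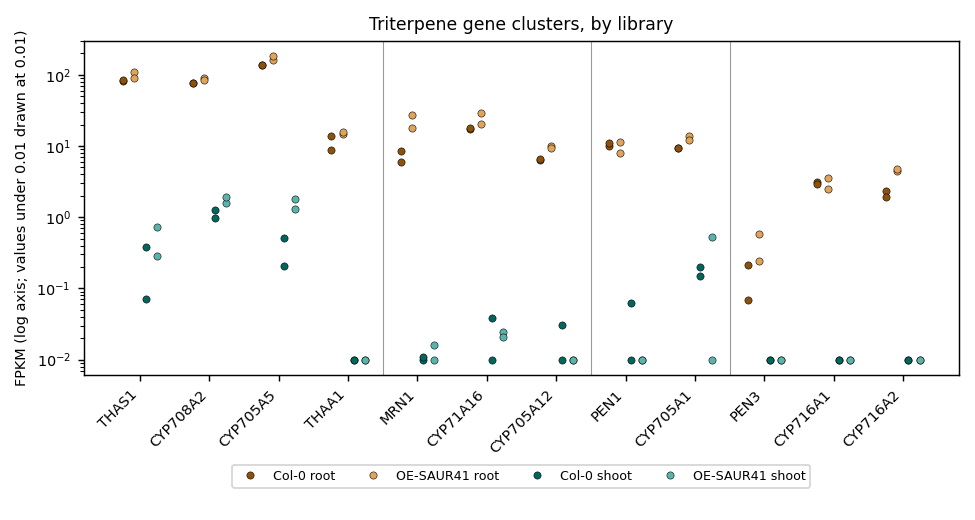
FPKM (log axis, values under 0.01 drawn at 0.01) of the P450s, cyclases and acyltransferase of 4 triterpene clusters, 2 points per group, with vertical lines between clusters. Root points lie above shoot points for every gene; the P450s lie at 1.90 to 184 FPKM in roots and at or below 1.91 in shoots.

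The phenylpropanoid list holds 6 members, of which 4 were tested, 2 being higher in roots and 1 higher in shoots in each genotype. CYP98A3, which hydroxylates the ring of coumaroyl esters in lignin synthesis, went with CYP73A5 and stood at 102 and 95.2 FPKM in Col-0 roots and 100.1 and 117 in OE-SAUR41 roots, against 31.3 and 36.5 in Col-0 shoots and 36.9 and 39.1 in OE-SAUR41 shoots; its root call was lost with median-of-ratios scaling. Its locus is shared with CYS3, at 1.20 to 2.51 FPKM in roots and 16.7 to 32.6 in shoots. CYP84A1 went the other way at 8.86 and 8.16 FPKM in Col-0 roots and 14.4 and 13.7 in OE-SAUR41 roots, against 81.6 and 68.5 in Col-0 shoots and 75.2 and 69.4 in OE-SAUR41 shoots, a log2 fold change of −2.99 ± 0.18 (SE) in Col-0 and −2.28 ± 0.18 in OE-SAUR41 (limma, adjusted p = 8.94e-06 and 3.4e-05). CYP84A4, an enzyme of arabidopyrone synthesis, stood at 2.03 to 2.50 FPKM in roots and 1.51 to 3.37 in shoots and was not called. The non-P450 partners of this pathway leaned to roots, 10 of 12 being higher there in each genotype and none higher in shoots, with a median change of 1.92 in Col-0 beside 0.91 for all genes. Of all genes, 52.7% in Col-0 and 66% in OE-SAUR41 were higher in roots, and 13.2% and 11.8% in shoots.

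Of the hormone P450s, the tested members for cytokinin (2 genes), strigolactone (1) and brassinosteroid (2) were higher in roots. Other brassinosteroid P450s were set aside by the rule, and CYP90C1 was not a member. CYP735A2 and CYP735A1, which hydroxylate cytokinins to trans-zeatin forms, stood at 13.7 to 21.1 and 1.83 to 3.24 FPKM in roots and at or below 0.497 in every shoot library. Both were stable across scales. CYP711A1, known as MAX1, which oxidises carlactone on the way to strigolactones, stood at 17.7 and 18.6 FPKM in Col-0 roots and 18.9 and 15.2 in OE-SAUR41 roots, against 4.18 and 2.33 in Col-0 shoots and 3.18 and 2.82 in OE-SAUR41 shoots, and its fold change was 2.21 ± 0.29 (SE) in Col-0 and 2.17 ± 0.29 in OE-SAUR41 (limma, adjusted p = 0.000502 and 0.000518). CYP711A1 shares its locus with IQD6, which stood at 7.33 to 7.77 FPKM in roots and 1.33 to 4.45 in shoots. The brassinosteroid-inactivating CYP72C1 and the brassinosteroid hydroxylase CYP90D1 stood at 15.4 to 20.9 and 7.09 to 11.2 FPKM in roots. In shoots they stood at 0.103 to 1.23 and 0.236 to 2.66. The top shoot values of both were in Col-0 shoot replicate 1, at 1.23 and 2.66 FPKM.

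The 2 tested gibberellin enzymes were higher in roots, abscisic acid enzymes went both ways, and the calls of jasmonate enzymes depended on the scale. Of 6 listed gibberellin genes 3 were members, and CYP701A3, CYP88A3 and CYP88A4 were not. CYP714A1 and CYP714A2, gibberellin-inactivating enzymes, stood at 3.13 to 4.72 and 1.14 to 2.81 FPKM in roots and at or below 0.0777 in shoots, and both were higher in roots in each genotype. Of the abscisic acid hydroxylases, CYP707A1 stood at 6.33 to 12.7 FPKM in roots and 0.544 to 3.29 in shoots and was higher in roots, while CYP707A2, at 0 to 0.129 and 0.95 to 2.06, was higher in shoots. The call of CYP707A1 in OE-SAUR41 was lost with quantile normalization and with median-of-ratios scaling, without OE-SAUR41 root replicate 1 (a change of 1.57) and without OE-SAUR41 shoot replicate 1 (1.62). CYP707A3 was not called and was the most variable of them, at 15.3 and 10.6 FPKM in Col-0 roots and 22.4 and 6.33 in OE-SAUR41 roots, against 24.2 and 2.64 in Col-0 shoots and 6.25 and 5.13 in OE-SAUR41 shoots. The jasmonate-isoleucine hydroxylases CYP94B3 and CYP94B1 stood at 6.72 to 17.9 and 4.02 to 5.47 FPKM in roots and 0.737 to 3.97 and 1.86 to 4.03 in shoots. CYP94B1 was called for roots in Col-0 alone and turned to shoots in OE-SAUR41 with quantile normalization or median-of-ratios scaling; no member of the jasmonate list was stable across scales. The root calls of CYP94B3 were lost in Col-0 without Col-0 root replicate 1 (1.56) and in OE-SAUR41 without OE-SAUR41 root replicate 1 (1.03), shoot replicate 1 (1.36) or shoot replicate 2 (1.83). That of CYP94B1 in Col-0 was lost without either Col-0 root library (0.66 and 1.03) and without OE-SAUR41 root replicate 1, root replicate 2 or shoot replicate 1, which left the change at 0.84. CYP94C1, which oxidises jasmonate-isoleucine further, stood at 1.08 to 2.49 and 0.944 to 5.10 and passed the test only with the other scales, as higher in shoots. CYP722A1, CYP72A9 and CYP707A4 of the hormone lists did not pass the level filter.

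Sterol P450s divided within 1 pair of neighbours. CYP51G1 stood at 96.2 to 119.7 FPKM in roots and 56.5 to 73.2 in shoots, a root call that was lost with median-of-ratios scaling; in OE-SAUR41 it was also lost without OE-SAUR41 root replicate 2 (a change of 0.54) and without OE-SAUR41 shoot replicate 1 (0.60). The sterol side-chain desaturases CYP710A1 and CYP710A2 lie next to each other on chromosome 2, from 14539478 and from 14535644. CYP710A1 stood at 24.2 and 18.6 FPKM in Col-0 roots and 26.9 and 29.1 in OE-SAUR41 roots, against 0.922 and 0.813 in Col-0 shoots and 1.73 and 0.517 in OE-SAUR41 shoots. CYP710A2 stood at 9.88 and 10.04 FPKM in Col-0 roots and 7.25 and 11.5 in OE-SAUR41 roots, against 24.8 and 38.3 in Col-0 shoots and 58.1 and 63.7 in OE-SAUR41 shoots. The first was higher in roots, with a fold change of 3.57 ± 0.34 (SE) in Col-0 and 3.83 ± 0.34 in OE-SAUR41 (limma, adjusted p = 8.98e-05 and 6.48e-05). The second was higher in shoots, with −1.54 ± 0.28 (SE) in Col-0 and −2.61 ± 0.28 in OE-SAUR41 (limma, adjusted p = 0.00253 and 0.000173).

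Cuticle enzymes leaned to shoots. Of 8 tested members of the cutin, wax and fatty acid list, 5 were higher in shoots and 1 in roots in Col-0, and 4 and 2 in OE-SAUR41, with medians 2.02 and 2.16 below that of all genes and 4 members stable as shoot-higher. Over all genes, 13.2% were higher in shoots and 52.7% in roots in Col-0, and 11.8% and 66% in OE-SAUR41. The list summed to 57.4 to 62.4 FPKM in roots and 163 to 243 in shoots. CYP86A2 stood at 28.5 and 26.6 FPKM in Col-0 roots and 23.3 and 31.1 in OE-SAUR41 roots, against 107 and 146 in Col-0 shoots and 188 and 195 in OE-SAUR41 shoots, so that all 4 shoot libraries lay above the roots. Its fold change was −2.14 ± 0.21 (SE) in Col-0 and −2.79 ± 0.21 in OE-SAUR41 (limma, adjusted p = 0.000113 and 3.2e-05). CYP77A6, a mid-chain cutin hydroxylase, and CYP77B1, a fatty acid epoxidase, stood at 3.51 to 4.95 and 15.0 to 26.6 FPKM in shoots and 0.0781 to 0.143 and 2.71 to 4.61 in roots. CYP86A8, known as LACERATA, was called in neither genotype, at 16.0 to 17.9 in roots and 20.7 to 24.6 in shoots, although it passed as higher in shoots with both other scales. The exceptions were CYP86A4 and CYP86C2. CYP86A4 stood at 6.92 to 8.62 FPKM in roots and 2.95 to 4.80 in shoots, a root call that neither other scale kept. It was also lost in Col-0 without either Col-0 root library (0.94 and 0.95), and in OE-SAUR41 without OE-SAUR41 root replicate 1 (0.91), root replicate 2 (0.79) or shoot replicate 2 (0.67). CYP86C2 was called for roots in OE-SAUR41 alone, at means of 2.61 FPKM in roots and 0.0902 in shoots. That call was kept with median-of-ratios scaling and lost with quantile normalization. CYP96A15, the alkane hydroxylase of stem wax, did not exceed 0.178 FPKM.

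The carotenoid hydroxylases were higher in every shoot library than in any root library. CYP97C1 stood at 0.276 to 0.35 FPKM in roots, and at 10.7 and 3.07 FPKM in shoots of Col-0 and 3.63 and 3.80 in those of OE-SAUR41, and was higher in shoots in both genotypes. CYP97B3 stood at 5.97 to 8.39 in roots, and at 44.7 and 15.4 FPKM in shoots of Col-0 and 15.7 and 14.7 in those of OE-SAUR41. CYP97A3 stood at 4.38 to 5.42 in roots, and at 36.5 and 5.50 FPKM in shoots of Col-0 and 10.8 and 6.501 in those of OE-SAUR41. In all 3, Col-0 shoot replicate 1 was the highest library, and in CYP97A3, which shares its locus with FH14, the other 3 shoot libraries lay within 5.50 to 10.8 FPKM. In Col-0, CYP97B3 was called, though not without either Col-0 root library (−1.80 and −1.67), and CYP97A3 was not; in OE-SAUR41 neither was, but both were with each of the other scales.

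Of the volatile terpene list only CYP76C1 was tested, and CYP76C2, CYP82G1, CYP76C4 and CYP706A3 stayed at or below 0.897 FPKM. CYP82G1, the homoterpene synthase, and CYP706A3 were listed in no root library. The CYP78A genes, regulators of organ and seed size, split by gene. CYP78A8 stood at 19.6 to 27.9 FPKM in roots and 2.60 to 5.71 in shoots, the reverse of CYP78A5, and both calls were stable. CYP78A6 and CYP78A9 stood at 1.37 to 2.38 and 0.717 to 1.87 FPKM in roots and 1.27 to 3.90 and 0.649 to 1.75 in shoots and were called in neither genotype.

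Subfamilies CYP705A and CYP706A each went mainly 1 way. CYP705A, with 25 members and 20 tested, had 20 higher in roots in Col-0 and 19 in OE-SAUR41, none higher in shoots and 17 stable, and its median lay 2.19 and 2.17 above that of all genes. The exception in OE-SAUR41 was CYP705A19, at 30.3 and 25.4 FPKM in Col-0 roots and 25.9 and 29.5 in OE-SAUR41 roots, against 17.6 and 15.1 in Col-0 shoots and 25.8 and 23.7 in OE-SAUR41 shoots, which was higher in shoots there with quantile normalization and with median-of-ratios scaling. The 25 genes summed to 368 to 439 FPKM in roots and 23.1 to 35.2 in shoots. CYP706A, with 7 members and 6 tested, had 4 higher in shoots and 1 higher in roots in both genotypes, all 5 stable. Beside these subfamilies, 52.7% of all genes in Col-0 and 66% in OE-SAUR41 were higher in roots, and 13.2% and 11.8% in shoots. CYP71B, the subfamily with most members, 32, split 9 higher in roots and 7 in shoots of 21 tested in Col-0 and 10 and 6 in OE-SAUR41 on the deposited scale. This balance turned with median-of-ratios scaling, to 6 and 10 in Col-0 and 6 and 8 in OE-SAUR41, and with quantile normalization, to 6 and 10 in each, and its stable calls were 5 and 6.

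Neighbouring genes could differ in organ. Runs of 3 or more members with starts at most 10 kb apart numbered 16 and held 74 members. Of these runs, 5 held stable members of both directions, 5 only root-higher and 3 only shoot-higher ones. The CYP72A run of 8 genes on chromosome 3 (4912465 to 4939465) held the root-higher CYP72A14 and also CYP72A11, and CYP72A11 stood at 11.5 to 14.05 FPKM in roots and 28.0 to 62.3 in shoots. CYP72A15 stood at 48.0 to 60.2 in roots and 14.7 to 31.0 in shoots, a root call that was lost with median-of-ratios scaling. CYP72A13 stood at 46.0 to 59.0 and 28.2 to 41.8, and its root call turned to shoots in OE-SAUR41 with median-of-ratios scaling. In the CYP705A run of 8 on chromosome 3 (7007868 to 7030787) 6 tested members were higher in roots in Col-0 and 5 in OE-SAUR41 on the deposited scale, the other being CYP705A19, which was higher in shoots there with both other scales. The third run of 8, CYP71B on chromosome 3 (9627561 to 9648584), held CYP71B37 at 21.4 to 30.2 FPKM in roots and 0.278 to 2.13 in shoots and CYP71B4 at 0 to 0.184 and 4.31 to 13.7.

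The sharpest contrast of neighbours, chosen after the values were seen, was the CYP706A run of 4 genes on chromosome 4 (7307736 to 7319739). CYP706A4 stood at 5.99 to 7.72 FPKM in roots and 5.43 to 6.71 in shoots and was called in neither genotype. CYP706A5 and CYP706A6 stood at 14.3 to 33.3 and 28.6 to 67.9 FPKM in shoots, against 0.56 to 1.47 and 0.123 to 0.272 in roots. The last gene, CYP706A7, reversed this at 7.65 to 10.1 FPKM in roots and 0.0721 to 0.261 in shoots. The CYP89A run on chromosome 1 (24113214 to 24129458), chosen likewise, had CYP89A2 at 4.32 to 7.41 FPKM in roots and 36.1 to 48.1 in shoots, beside CYP89A6 at 10.1 to 13.7 and 0.221 to 0.461.

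**Figure D4:**
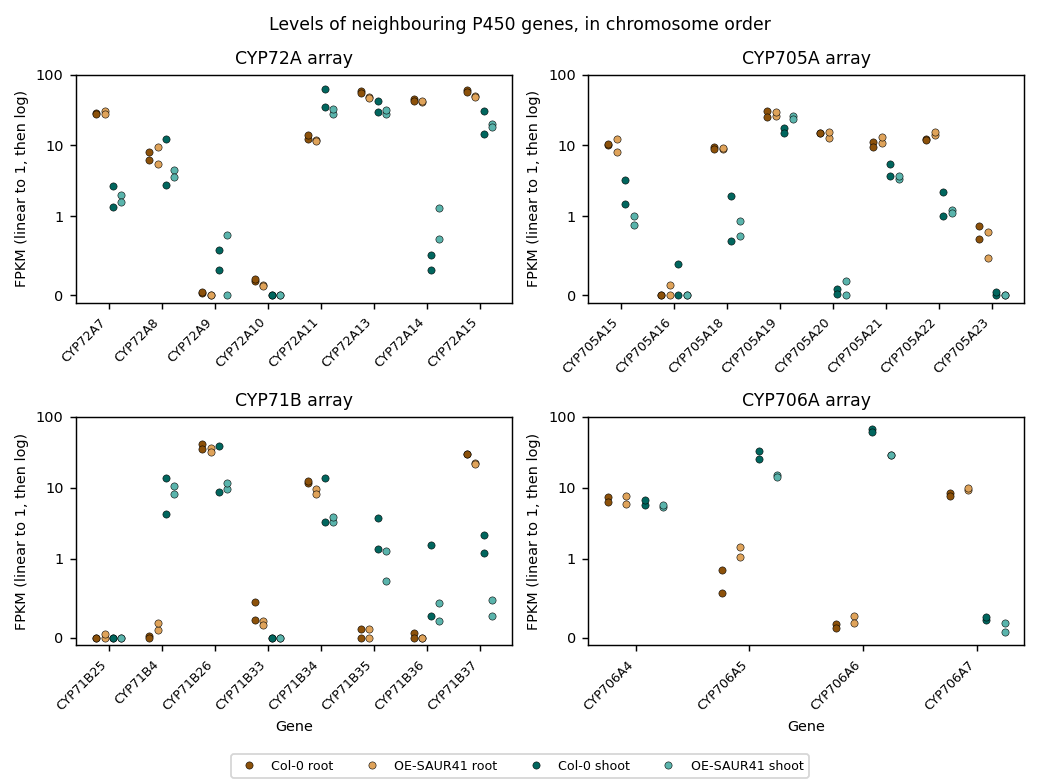
FPKM (linear to 1, then log) of the genes of 4 runs of neighbouring P450s in chromosome order, 2 points per group. In the CYP705A run the root points lie above the shoot points for 5 of the 6 tested genes and overlap them for CYP705A19, while CYP72A11, CYP71B4, CYP706A5 and CYP706A6 lie higher in shoots than in roots beside neighbours that lie lower.

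Overexpression of SAUR41 was compared with Col-0 within each organ, the question that the series title and design pose. On the deposited scale no P450 passed the test in roots or in shoots. In roots the smallest adjusted p among the 142 members was 1, and 4 members had an unadjusted p under 0.05 by limma; over all genes 1 was called (0.00503%) and 1.71% had such an unadjusted p. In shoots the smallest was 0.0935, and 16 members had an unadjusted p under 0.05, beside 0.0201% called and 14% unadjusted over all genes. These tests take 1 spread from all 4 groups, the wide Col-0 shoot pair included. Fitted on the root libraries alone, 16 members and 964 of 19863 genes had an unadjusted p under 0.05 by limma. On the shoot libraries alone these numbers were 8 and 1226. No member was called in either fit. The median change of the members was 0.027 in roots, where that of all genes was −0.032, and −0.031 in shoots, where that of all genes was −0.32. The shoot medians depended on the Col-0 shoot libraries. Without replicate 1 they were 0.087 for members and −0.026 for all genes, and without replicate 2 they were −0.15 and −0.58. The standard error of a member's change was 0.27 at the median.

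In roots both OE-SAUR41 libraries lay above both Col-0 libraries for 42 members (29.6%, beside 11.5% of all genes) and below for 23 (16.2%, beside 19.6%). With median-of-ratios scaling these were 45 and 18 (background 15.8% and 17.2%). The 4 positive members with the smallest p were CYP716A2, CYP84A1, CYP96A8 and CYP706A1. CYP716A2 stood at 2.30 and 1.90 FPKM in Col-0 roots and 4.48 and 4.69 in OE-SAUR41 roots, a log2 change of 0.85 ± 0.19 (SE; limma, adjusted p = 1). CYP84A1 stood at 8.86 and 8.16 FPKM in Col-0 roots and 14.4 and 13.7 in OE-SAUR41 roots, a change of 0.67 ± 0.18 (SE; limma, adjusted p = 1). CYP706A1 stood at 10.8 and 7.16 FPKM in Col-0 roots and 24.7 and 12.2 in OE-SAUR41 roots. In CYP96A8, a clan 86 gene, the values were 0.871 and 0.775 FPKM in Col-0 roots and 1.39 and 1.42 in OE-SAUR41 roots. The groups did not overlap in any of the 4, although none passed the adjusted test. With genes picked by the smallest p in this same comparison, such separation is largely built in and adds no support.

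The triterpene P450s lay higher in OE-SAUR41 roots without overlap for 6 of 7 members, with a median change of 0.41, and none was called. Of all genes 11.5% did so, and of the 142 tested P450s 29.6%. Genes of 1 cluster are neighbours measured in the same 2 libraries a group, so they are not independent observations. CYP71A16 had a change of 0.45 ± 0.28 (SE; limma, adjusted p = 1), CYP705A12 of 0.50, CYP705A1 of 0.41, CYP705A5 of 0.30 and CYP708A2 of 0.19, while CYP716A1, with −0.02, overlapped. The marneral synthase gene MRN1 stood at 8.45 and 5.94 FPKM in Col-0 roots and 27.5 and 17.8 in OE-SAUR41 roots, also without overlap. With MRN1, 3 of the 4 tested cyclase and acyltransferase genes lay higher without overlap, beside the same 11.5% of all genes.

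On the lower side in roots were CYP78A9, CYP735A2, CYP707A1 and CYP71B29. CYP735A2, the higher of the 2 cytokinin hydroxylases by level, stood at 19.7 and 21.1 FPKM in Col-0 roots and 13.7 and 13.9 in OE-SAUR41 roots, a change of −0.53 ± 0.26 (SE; limma, adjusted p = 1). CYP707A1 stood at 12.7 and 12.7 FPKM in Col-0 roots and 7.97 and 6.33 in OE-SAUR41 roots, a change of −0.76 ± 0.46 (SE; limma, adjusted p = 1). CYP78A9 and CYP71B29 had changes of −0.57 and −0.45. In all 4 genes both OE-SAUR41 libraries lay under both Col-0 libraries, and none was called. These 4 were also picked by p in this comparison, so the separation adds no support.

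In shoots the OE-SAUR41 libraries lay above Col-0 for 21 members (14.8%, beside 7.26% of all genes) and below for 27 (19.0%, beside 32.5%). Median-of-ratios scaling turned this balance, to 49 above and 11 below (background 18.9% and 16.5%). CYP81F4 came closest to the threshold: it stood at 17.0 and 14.5 FPKM in shoots of Col-0 and 34.2 and 35.8 in those of OE-SAUR41, a change of 1.11 ± 0.16 (SE; limma, adjusted p = 0.0935), and it was called with quantile normalization. In roots its change was −0.23, the OE-SAUR41 libraries lying below Col-0. The difference between the 2 genotype effects was −1.34 ± 0.23 (SE; limma, adjusted p = 0.628), the smallest p of any member in that test, in which no member was called and 7 had an unadjusted p under 0.05 (background 0 called and 4.77% unadjusted). The next members by p in each direction were CYP706A6, CYP706A5, CYP716A2 and CYP84A1, with differences of 1.22, 1.35, 0.85 and 0.71, and CYP710A2, CYP81F2 and CYP86A2, with −1.07, −1.18 and −0.64.

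CYP705A5, CYP710A2 and CYP705A19 were the other positive members with the smallest p in shoots. CYP710A2 stood at 24.8 and 38.3 FPKM in shoots of Col-0 and 58.1 and 63.7 in those of OE-SAUR41, a change of 0.96 ± 0.28 (SE; limma, adjusted p = 0.269). CYP705A5 had a log2 change of 0.91 in shoots, where its level was at most 1.80 FPKM, and of 0.30 in roots. CYP705A19 had a change of 0.58 in shoots and −0.01 in roots. The groups did not overlap in shoots for any of these 3, which follows largely from picking them by p in this comparison.

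The lower side in shoots was led by the neighbours CYP706A6 and CYP706A5. CYP706A6 had a change of −1.13 ± 0.24 (SE; limma, adjusted p = 0.18) and CYP706A5 of −0.94 ± 0.28 (SE; limma, adjusted p = 0.27), from shoot values of 60.5 and 67.9 FPKM in Col-0 to 28.6 and 29.1 in OE-SAUR41 for CYP706A6, and from 33.3 and 25.3 to 15.0 and 14.3 for CYP706A5. In both genes the Col-0 pair lay above the OE-SAUR41 pair, again largely a result of picking them by p. CYP71B37 had a change of −0.93 and CYP78A8 of −0.74. The unlike Col-0 shoot libraries decide the count of calls: without replicate 1, 5 members were called higher and none lower (0.911% and 0.886% of all genes), and without replicate 2, 5 were called higher and 42 lower (3.93% and 45.8%). CYP81F4 and CYP705A5, picked from these refits, had changes of 1.21 and 1.07 without replicate 1 and of 0.999 and 0.749 without replicate 2. Both refits leave 1 Col-0 shoot library and use the same OE-SAUR41 shoot pair, so they are not independent support.

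**Figure D5:**
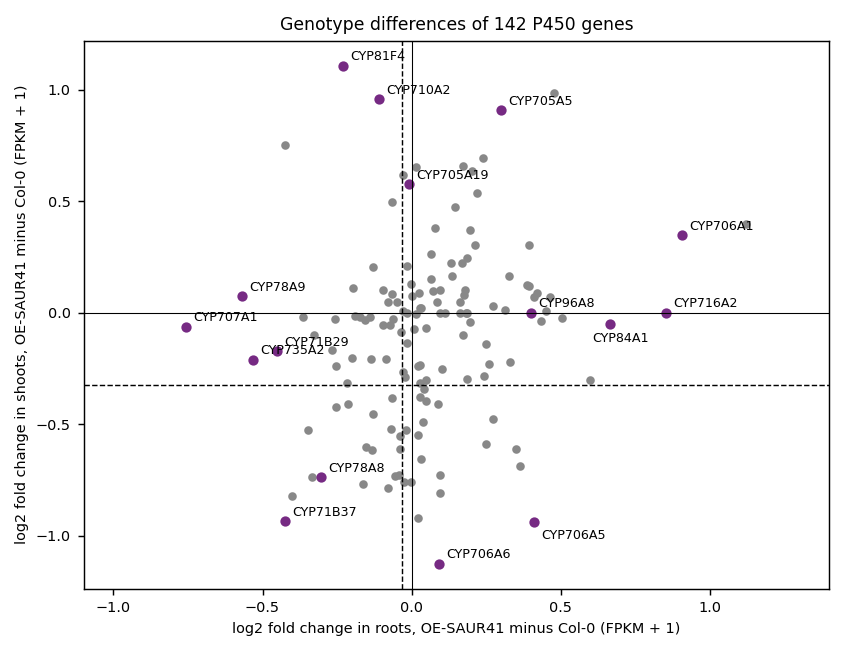
Log2 fold change of OE-SAUR41 against Col-0 in roots (horizontal) and in shoots (vertical), on log2(FPKM + 1), for the 142 tested P450 genes; purple points are the 4 genes with the smallest p in each direction and organ, none of which passed the adjusted test. Dashed lines are the medians of all genes, −0.032 in roots and −0.32 in shoots; CYP81F4 lies at −0.23 and 1.11.

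The proteins that serve P450s were measured beside them. Of 10 genes for electron donors and membrane anchors, 8 were higher in roots in each genotype, none higher in shoots and none called between genotypes. Their median changes of 1.14 and 0.99 lay near those of all genes, 0.91 and 1.22. Over all genes, 52.7% and 66% were higher in roots and 13.2% and 11.8% in shoots, in Col-0 and OE-SAUR41. The reductases ATR1 and ATR2 stood at 88.4 to 95.0 and 64.4 to 83.9 FPKM in roots and 18.4 to 38.2 and 19.2 to 59.0 in shoots, and cytochrome b5 gene CB5-D, a partner of syringyl lignin synthesis, at 115 to 140.1 and 92.1 to 149.9. The list summed to 1114 to 1234 FPKM in roots and 571 to 628 in shoots. Of 7 non-P450 partners of the indole pathway, 3 were higher in roots in Col-0, and 4 in roots and 2 in shoots in OE-SAUR41; IGMT1, the methyltransferase that acts after CYP81F enzymes, stood at 57.8 to 89.7 FPKM in roots and 3.54 to 14.2 in shoots.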

How the data were processed

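Roots and shoots of 5-day-old seedlings gave total RNA by TRIzol, which was sequenced on a HiSeq instrument, per the labels' protocols. The authors deposited 1 table per library with gene, name, locus and FPKM, a value scaled to transcript length and to mapped fragments, per the file headers. The build was TAIR10, per the submitters' processing notes; the aligner, quantifier and strand handling were not given in the sources used here. Files list only values above 0, and unlisted genes were taken as 0. In 3 genes 1 library of a group was unlisted while the other exceeded 100 FPKM; these were left out.

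Values were tested as log2(FPKM + 1) with limma 3.58.1 in R 4.3.3 (trended empirical Bayes, 4 group means, 4 residual and 3.53 prior degrees of freedom) over the 19863 genes that reached 1 FPKM in 2 or more of 8 libraries. P-values were two-sided and adjusted by Benjamini-Hochberg over all of these genes, with calls at 0.05. With 2 libraries a group, an exact permutation test of 1 gene cannot go below p = 0.333, so none was run. The depth is unknown. Summaries used Python 3.11.15 with pandas 2.3.3. The scripts were tested on simulated data.

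Members, role lists and partner lists were chosen with earlier results of these data known, and support nothing by their direction. Lists were counted, not tested. Genes were named by rule: the 8 largest called changes each way between organs with at least 5 FPKM in the higher group, the 4 smallest p each way between genotypes, the 6 highest levels per organ, the 4 highest of each of 14 role lists, every triterpene cluster member, the highest of each clan and the 3 longest runs. Of 82 role entries, 9 were not analysed here. Other genes in the text were chosen after their values were seen.

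Alternatives were other pseudocounts (0.1 and 5), quantile normalization, median-of-ratios scaling, a filter at 5 FPKM or none, the compared libraries alone, a replicate block, and leaving out each library. No sequence is shown.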

Additional observations from a re-analysis of the deposited data

How the results depend on the processing

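Without a library the numbers of P450 calls ranged from 0 to 0 between genotypes in roots, 0 to 47 in shoots, 0 to 30 for the difference between organs, 102 to 127 between organs in Col-0 and 103 to 126 in OE-SAUR41; a library left alone in its group took its spread from the other groups. Calls for roots ranged from 74 to 93 in Col-0 and 76 to 89 in OE-SAUR41, and calls for shoots from 28 to 42 and 27 to 37. In shoots, 1 member was called between genotypes with quantile normalization, 5 without Col-0 shoot replicate 1 and 47 without Col-0 shoot replicate 2, against 0 as reported. The difference between organs gave 30 without Col-0 shoot replicate 2, against 0. Members higher in shoots numbered 18 in Col-0 and 19 in OE-SAUR41 with a filter of 5 FPKM, which tests fewer genes, against 32 and 30, and in OE-SAUR41 50 with quantile normalization and 48 with median-of-ratios scaling. The other 142 of these counts, by total or by direction, stayed within 1.5 times.

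The scales moved the split of organ calls, from 86 and 32 to 67 and 45 in Col-0 with median-of-ratios scaling. With it, 19 root calls were lost in Col-0, and 18 were lost and 1 turned in OE-SAUR41; quantile normalization lost 15 and 21. Neither lost a shoot call. For genes named by level, role, clan, size of change or p, 2026 values kept their direction and side of the threshold, 62 passed it anew, 42 no longer passed it and 28 changed sign. With median-of-ratios scaling, log2 changes of root against shoot in Col-0 fell to −0.24 for CYP51G1, −0.15 for CYP78A9, −0.70 for CYP83B1 and −0.31 for CYP707A3. In OE-SAUR41 they fell to −0.084 for CYP79B2, −0.10 for CYP79B3, −0.056 for CYP72A15, −0.77 for CYP51G1, −0.36 for CYP86A4, −0.96 for CYP94B1, −0.29 for CYP707A3 and −0.94 for CYP84A4. Quantile normalization gave −0.10 for CYP94B1, −0.51 for CYP78A9 and −0.39 for CYP707A3 in Col-0, and −0.43 for CYP86A4, −1.097 for CYP94B1, −0.19 for CYP707A3 and −1.22 for CYP84A4 in OE-SAUR41. Leaving out each library in turn turned the sign of changes that had not passed the test. In Col-0 they ranged from −1.11 to 0.13 for CYP94C1, −0.88 to 1.92 for CYP707A3 and −0.084 to 0.070 for CYP84A4. In OE-SAUR41 they ranged from −0.17 to 0.14 for CYP78A6, −0.60 to 0.13 for CYP78A9, −0.12 to 0.0028 for CYP83B1 and −0.33 to 0.47 for CYP84A4. The cause was not tested.

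Deviations of same-numbered libraries from their group means correlated at −0.22 to 0.46 between groups. The highest value was between OE-SAUR41 roots and Col-0 shoots. Whether replicate numbers mark a shared batch was not tested. A replicate block gave 119 and 119 calls between organs and 0 between genotypes. Exchanged numbers in Col-0 shoots gave 116 in Col-0, an alternative chosen after seeing the data, as was leaving out both Col-0 shoot libraries (0 calls in roots, 126 between organs in OE-SAUR41). Fragment numbers are unknown, so low levels cannot be given a counting error.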

Other observations

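Some P450 groups outside the role lists were counted by organ as well. The CYP702A genes of clan 85, 5 members with 3 tested, were higher in roots in both genotypes for all 3. Over all genes the root shares were 52.7% in Col-0 and 66% in OE-SAUR41. The subfamily summed to 21.0 to 29.0 FPKM in roots and 0 to 0.180 in shoots. Of 6 tested CYP81D genes, 4 were higher in roots in Col-0 and 5 in OE-SAUR41 on the deposited scale, and 2 were stable, CYP81D11 and CYP81D3. Their median lay 0.59 and 0.33 above that of all genes. Whether these 6 genes differ from the shares of all genes was not tested. CYP81D4 was higher in shoots in Col-0 with both other scales, as was CYP81D1 in both genotypes with quantile normalization and in OE-SAUR41 with median-of-ratios scaling. Their highest member, CYP81D11, a gene known to respond to jasmonate and foreign compounds, stood at 80.9 to 104 FPKM in roots with a shoot mean of 6.34 FPKM, and it shares a locus with SSRP1. In contrast, the 3 tested genes of a CYP71A run on chromosome 3 (17879565 to 17893975) were higher in shoots in both genotypes and under each scale. On the deposited scale the shoot shares over all genes were 13.2% in Col-0 and 11.8% in OE-SAUR41.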
